A study of Mus musculus with 20 samples.

Results

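The interferon-gamma signaling chain was followed through 7 genes: the cytokine (Ifng), both receptor chains (Ifngr1, Ifngr2), both receptor-bound kinases (Jak1, Jak2), a transcription factor that the signal induces (Irf1) and the feedback inhibitor Socs1. The genes were chosen by name, as the rows of the deposited expression table that carry one of these symbols. All 7 were present among 14633 genes, and all 7 were among the 14385 tested after a filter on low values. The samples were HEPA1-6 tumors, from a mouse hepatoma cell line injected under the skin of C57/BL6 mice and grown for 4 weeks, so every tumor derives from 1 cell line in hosts of 1 strain. The tumors were injected with a control antibody or with one directed at the chemokine CXCL10, alone or together with GSK343, an inhibitor of the histone methyltransferase EZH2. The groups were control antibody without GSK343 (n = 4 libraries, replicates 1, 2, 3 and 5), control antibody plus GSK343 (n = 5), anti-CXCL10 without GSK343 (n = 5) and both agents, anti-CXCL10 plus GSK343 (n = 5). The fourth control antibody replicate of the labels was not analysed here, and doses, host sex and host age are not given in the sources used here.

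Interferon-gamma is made mainly by activated T cells and natural killer (NK) cells. It binds a receptor of 2 chains that is present on most cells, tumor cells included. IFNGR1 binds the ligand and carries JAK1, and IFNGR2 brings in JAK2. The kinases activate STAT proteins, which induce genes such as Irf1 through the gamma-activated site (GAS), and IRF proteins act on the interferon-stimulated response element (ISRE). SOCS1, itself induced by the signal, binds the kinases and ends it. In tumors the pathway is known for raising antigen presentation and the chemokines that attract T cells.

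The values are FPKM, fragments per kilobase of transcript, scaled to the mapped total, so levels can be compared between genes. The read depth behind them is unknown, which leaves the spread between replicates as the measure of error. The FPKM of a library summed to between 533606 and 629679, and the correlation between replicates of a group ranged from 0.942 to 0.977. The 11 tested hepatoma markers summed to between 4614 and 11590 FPKM, and none was at 0 in a whole group. The libraries of the control antibody (9) and of anti-CXCL10 (10) carry 2 separate runs of sample-sheet numbers, each from 1 to 10, so antibody and numbering set cannot be told apart. GSK343 was compared within a set. The labels do not say that replicates came from separate animals, and p-values measure only the spread between these samples.

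The promoter sequence bears on this chain because its last steps act on DNA. RefSeq promoters (build GRCm38.p6, 250 bases before to 50 after each start) were found for all 7 genes and searched on both strands for the GAS letters TTCNNNGAA and the ISRE core GAAANNGAA. A GAS match was present in 8.30% of all 32851 promoters, an ISRE core in 8.56% and either in 15.8%. Matches were found in 3 of the 7 genes, and the 250 bases before the start are shown for these 3, 5′ to 3′, with the matches in capitals. Ifng is on the plus strand (chr10:118440796-118441045), Irf1 on the plus strand (chr11:53769764-53770013) and Socs1 on the minus strand (chr16:10785537-10785786).
Ifng: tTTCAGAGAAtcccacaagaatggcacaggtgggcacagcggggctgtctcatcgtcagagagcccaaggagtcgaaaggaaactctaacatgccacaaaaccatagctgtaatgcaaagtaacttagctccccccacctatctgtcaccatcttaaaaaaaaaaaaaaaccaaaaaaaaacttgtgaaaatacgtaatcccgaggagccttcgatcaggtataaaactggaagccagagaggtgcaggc
Irf1: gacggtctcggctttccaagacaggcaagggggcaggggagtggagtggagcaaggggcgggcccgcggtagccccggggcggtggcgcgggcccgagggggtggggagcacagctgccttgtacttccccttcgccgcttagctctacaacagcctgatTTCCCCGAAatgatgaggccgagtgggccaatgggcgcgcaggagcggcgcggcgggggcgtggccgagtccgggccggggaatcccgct
Socs1: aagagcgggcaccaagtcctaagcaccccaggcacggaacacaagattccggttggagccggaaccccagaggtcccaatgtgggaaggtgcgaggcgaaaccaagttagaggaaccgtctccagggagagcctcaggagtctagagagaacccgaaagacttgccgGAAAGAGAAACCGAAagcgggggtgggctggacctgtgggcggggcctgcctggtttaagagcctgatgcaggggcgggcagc
The Irf1 promoter held 1 GAS match, TTCCCCGAA, whose first base lay at -90 from the start. The Socs1 promoter held 2 ISRE cores that overlap each other, GAAAGAGAA at -83 and GAAACCGAA at -77, and no GAS match. The Ifng promoter held 1 GAS match, TTCAGAGAA at -249, at the far edge of the window. No match was found in the windows of Ifngr1, Ifngr2, Jak1 and Jak2, or in that of a second start of Irf1. These matches are letters only, and binding was not measured.

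Per length, the chain ran from a rare ligand transcript to an abundant transcription factor. Over all 19 libraries the median level was 3.69 FPKM for Ifng, 20.4 for Socs1, 22.5 for Jak1, 24.4 for Ifngr2, 39.9 for Jak2, 65.4 for Ifngr1 and 128 for Irf1. The order held in all 19 libraries for Ifngr1 over Jak2, for Jak2 over Ifngr2 and for Socs1 over Ifng. Neighbours that traded places were Irf1 over Ifngr1 (15 of 19 libraries), Ifngr2 over Jak1 (13 of 19) and Jak1 over Socs1 (11 of 19). Within a library, the median ratio was 2.74 for the level of Ifngr1 to Ifngr2 (lowest 1.90, highest 3.43) and 1.86 for Jak2 to Jak1 (1.52 to 2.24).

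The members fell apart by how much they varied. The coefficient of variation over the 19 libraries was 91.5% for Ifng, 53.5% for Socs1 and 45.7% for Irf1, against 19.1% for Jak2, 17.4% for Jak1, 11.6% for Ifngr1 and 9.24% for Ifngr2. Ifng varied more than 97.4% of tested genes, Socs1 more than 92.2% and Irf1 more than 88.8%. For Jak2 the share was 51.4%, for Jak1 45.4%, for Ifngr1 18.2% and for Ifngr2 7.49%. Variation over all libraries, differences between groups included, was thus large for the ligand, the feedback inhibitor and the transcription factor. It was near the middle of the tested genes for the kinases and small for the receptor chains. Within the groups, in the order listed at the start, it was 25.8%, 67.2%, 28.5% and 31.2% for Ifng. For Socs1 it was 24.5%, 28.5%, 37.1% and 24.6%, and for Irf1 10.9%, 58.8%, 44.4% and 48.5%. The tested genes were not matched to the members by level.

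**Figure D1:**
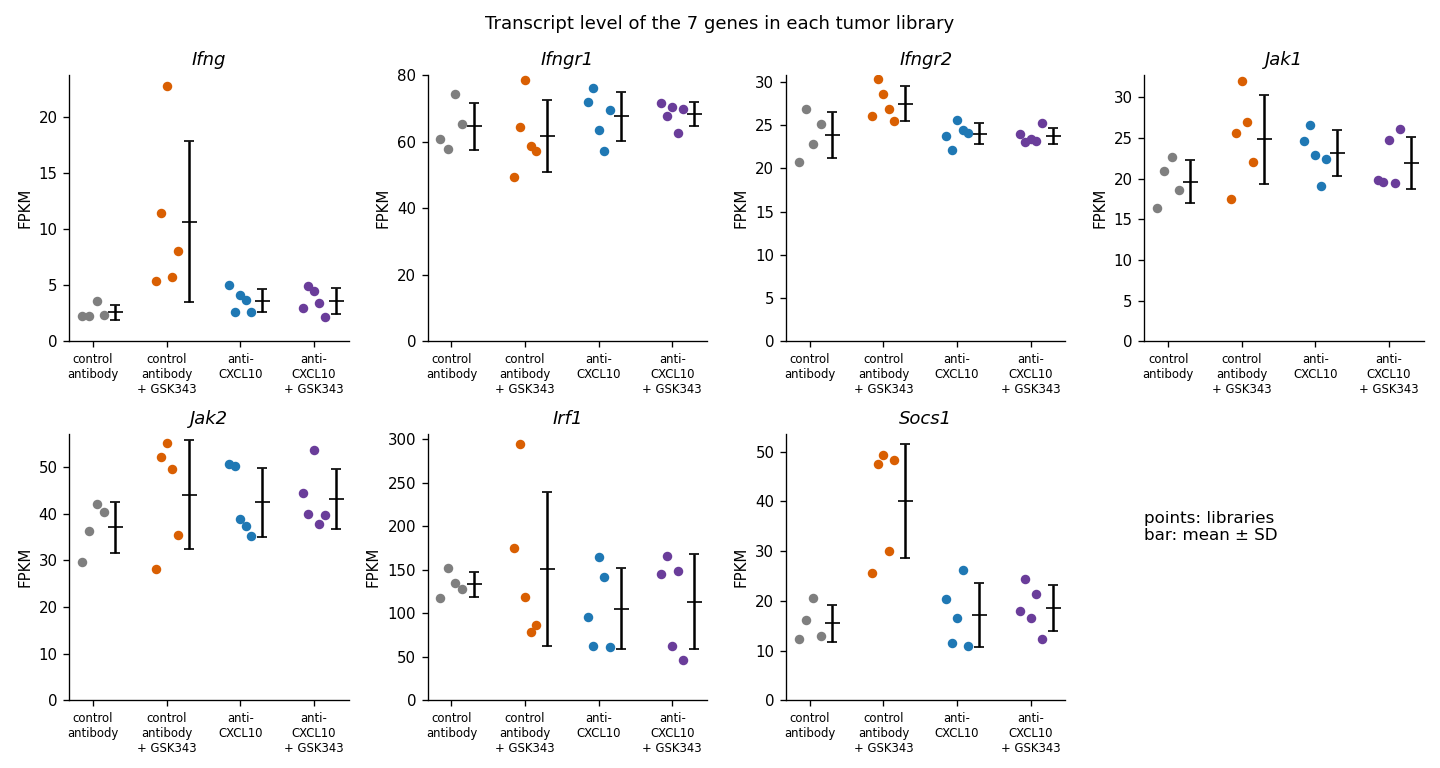
Transcript level (FPKM, vertical axis from 0) of each of the 7 genes in the 4 groups. Points are libraries and the bar is the mean ± SD. The 5 libraries of control antibody plus GSK343 all lie above the highest control antibody library for Ifng and Socs1. These 2 groups overlap for the other 5 genes. The share of all tested genes with such a separation was not counted.

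Ifng (plus strand, chr10:118441047-118445892 in the deposited table) encodes the ligand. With control antibody alone the 4 libraries, in order of replicate, had 2.25, 2.23, 3.62 and 2.34 FPKM. With control antibody plus GSK343 the 5 libraries had 5.36, 11.5, 22.7, 5.70 and 8.01 FPKM. All 5 treated libraries were higher than the highest control, and replicate 3 of the treated group was the highest of all 19. With anti-CXCL10 the libraries had 5.05, 2.61, 4.14, 3.69 and 2.65 FPKM, and with anti-CXCL10 plus GSK343 they had 2.99, 4.90, 4.53, 3.46 and 2.14. These 2 groups overlapped each other and the control antibody group. None of their 10 libraries reached the lowest library of control antibody plus GSK343.

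Under the control antibody, Ifng rose with GSK343 from 2.61 ± 0.673 FPKM (SD, n = 4) to 10.6 ± 7.16 (SD, n = 5). The difference was 1.52 ± 0.30 on the log2(FPKM + 1) scale (SE, 95% interval 0.88 to 2.16, limma adjusted p = 0.00756). Under anti-CXCL10 the means were 3.63 ± 1.04 and 3.60 ± 1.12 FPKM without and with GSK343 (n = 5 each), a difference of -0.02 with an interval of -0.62 to 0.59 (limma adjusted p = 0.9997). With GSK343 present, Ifng fell by 1.19 ± 0.29 under anti-CXCL10 relative to the control antibody (interval -1.80 to -0.59, limma adjusted p = 0.0150, 5 of 5 libraries below the lowest). The share of all tested genes with such a separation was not counted, here or for GSK343 under the control antibody. In fits of the compared groups alone, the adjusted p of Ifng was 0.0627 and 0.0597 in the 2 called comparisons. These comparisons share the 5 libraries of control antibody plus GSK343. In bulk tumors, fewer cells of a type and less RNA per cell cannot be told apart.

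Socs1 (minus strand, chr16:10783808-10785536) encodes the inhibitor of the receptor-bound kinases. Its libraries had 12.2, 16.1, 20.5 and 12.9 FPKM with control antibody and 25.5, 47.4, 49.4, 30.0 and 48.4 with GSK343 added. The treated libraries were again all higher than the controls, and replicates 2, 3 and 5 stood close together at the top. With anti-CXCL10 the libraries had 20.4, 11.5, 16.6, 26.1 and 11.0 FPKM, and with anti-CXCL10 plus GSK343 they had 18.0, 24.3, 16.6, 21.4 and 12.4. Replicate 4 of anti-CXCL10 lay just above the lowest library of control antibody plus GSK343, and the other 9 anti-CXCL10 libraries lay below it.

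The means of Socs1 were 15.5 ± 3.79 FPKM with control antibody (n = 4), 40.1 ± 11.4 with control antibody plus GSK343 (n = 5), 17.1 ± 6.36 with anti-CXCL10 (n = 5) and 18.5 ± 4.56 with anti-CXCL10 plus GSK343 (n = 5). Socs1 rose with GSK343 under the control antibody by 1.30 ± 0.26 (interval 0.75 to 1.84, limma adjusted p = 0.00756). Under anti-CXCL10 the difference was 0.15 (interval -0.37 to 0.66, limma adjusted p = 0.9997). With GSK343 present, Socs1 fell by 1.06 ± 0.24 under anti-CXCL10 (interval -1.57 to -0.54, limma adjusted p = 0.0124, 5 of 5 libraries below the lowest). As for Ifng, the share of all tested genes that separate so was not counted.

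Irf1 (plus strand, chr11:53770014-53778374), the transcription factor with the GAS match shown above, had no call in the 2 comparisons where Ifng passed. Its libraries had 118, 152, 135 and 128 FPKM with control antibody and 176, 294, 119, 79.0 and 87.1 with GSK343 added. The treated group therefore spread to both sides of the control group, with 2 libraries above it and 2 below it, and the library with the most Ifng (replicate 3) had 119. With anti-CXCL10 the libraries had 96.2, 62.8, 165, 142 and 61.2 FPKM, and with anti-CXCL10 plus GSK343 they had 145, 166, 62.2, 149 and 46.2. Both groups split: 2 libraries of each lay at or below 62.8 FPKM and the other 3 at or above 96.2. Means were 133 ± 14.5, 151 ± 88.7, 105 ± 46.8 and 114 ± 55.0 FPKM in the same order of groups. The difference with GSK343 under the control antibody was 0.01 ± 0.42, with an interval of -0.88 to 0.90 (limma adjusted p = 0.996), which leaves room for a change of either sign. Irf1 overlaps Gm17334 on the opposite strand, which averaged between 0.651 and 1.39 FPKM by group, with the strand setting of the counting not given in the sources used here.

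Ifngr1 (plus strand, chr10:19591949-19610229), the ligand-binding chain, ranged from 49.4 to 78.6 FPKM over the 19 libraries, and both extremes belonged to control antibody plus GSK343. Its group means were 64.6 ± 7.16 FPKM with control antibody, 61.7 ± 10.9 with GSK343 added, 67.6 ± 7.42 with anti-CXCL10 and 68.3 ± 3.56 with both. The difference with GSK343 under the control antibody was -0.07 (interval -0.31 to 0.16, limma adjusted p = 0.795).

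Ifngr2 (plus strand, chr16:91547072-91565169), the chain that brings in JAK2, was the least variable member. It had 20.7, 26.9, 22.8 and 25.1 FPKM with control antibody, and 26.0, 30.3, 28.6, 26.9 and 25.4 with GSK343 added. Those groups overlapped. With anti-CXCL10 plus GSK343 it had 24.0, 23.1, 23.4, 23.2 and 25.3 FPKM. All 5 libraries lay below the lowest of control antibody plus GSK343, but the nearest values, 25.3 and 25.4 FPKM, were close. How many of all tested genes separate in this way was not counted. The differences were small and did not pass: 0.20 ± 0.08 for GSK343 under the control antibody (interval 0.04 to 0.36, limma adjusted p = 0.152) and -0.20 ± 0.07 for anti-CXCL10 with GSK343 (interval -0.35 to -0.05, limma adjusted p = 0.0875).

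Jak1 (minus strand, chr4:101152367-101265282) ranged from 16.4 to 32.0 FPKM, and Jak2 (plus strand, chr19:29251828-29313080) from 28.1 to 55.1. Jak1 averaged 19.6 ± 2.70 FPKM with control antibody, 24.8 ± 5.43 with GSK343 added, 23.1 ± 2.82 with anti-CXCL10 and 21.9 ± 3.22 with both. Jak2 averaged 37.0 ± 5.49, 44.0 ± 11.7, 42.4 ± 7.40 and 43.1 ± 6.38 FPKM in that order. Library by library, replicate 1 of control antibody plus GSK343 had the lowest Jak2 of all 19 and replicate 3 the highest level of both kinases. The differences with GSK343 under the control antibody were 0.31 for Jak1 (interval -0.0037 to 0.61, limma adjusted p = 0.273) and 0.21 for Jak2 (interval -0.16 to 0.59, limma adjusted p = 0.590). In the annotation Jak1 overlaps Raver2, which was not analysed here.

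Counted over the chain, 2 of the 7 members passed in GSK343 with control antibody, where 5.47% of the tested genes passed (627 higher and 160 lower). Also 2 of 7 passed in anti-CXCL10 with GSK343, where 10.1% of genes passed (501 higher and 955 lower). By limma, 0 of 7 passed in GSK343 with anti-CXCL10 (0% of genes), in anti-CXCL10 without GSK343 (0.0139%) and in GSK343 plus anti-CXCL10 against control antibody (0.00695%), and 0 of 7 had an unadjusted p under 0.05 in each of these 3. The test of whether the GSK343 effect differed between the antibodies called 0 of 7 members and 0.0626% of genes. In it Ifng had -1.54 ± 0.42 (interval -2.42 to -0.66, limma adjusted p = 0.131) and Socs1 -1.15 ± 0.36 (interval -1.90 to -0.40, limma adjusted p = 0.182), both with an unadjusted p under 0.05. Without replicate 1 of control antibody plus GSK343 both passed that test, with adjusted p of 0.0304 and 0.0489. A difference between the antibodies in the GSK343 effect on the chain was therefore not shown with all libraries.

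**Figure D2:**
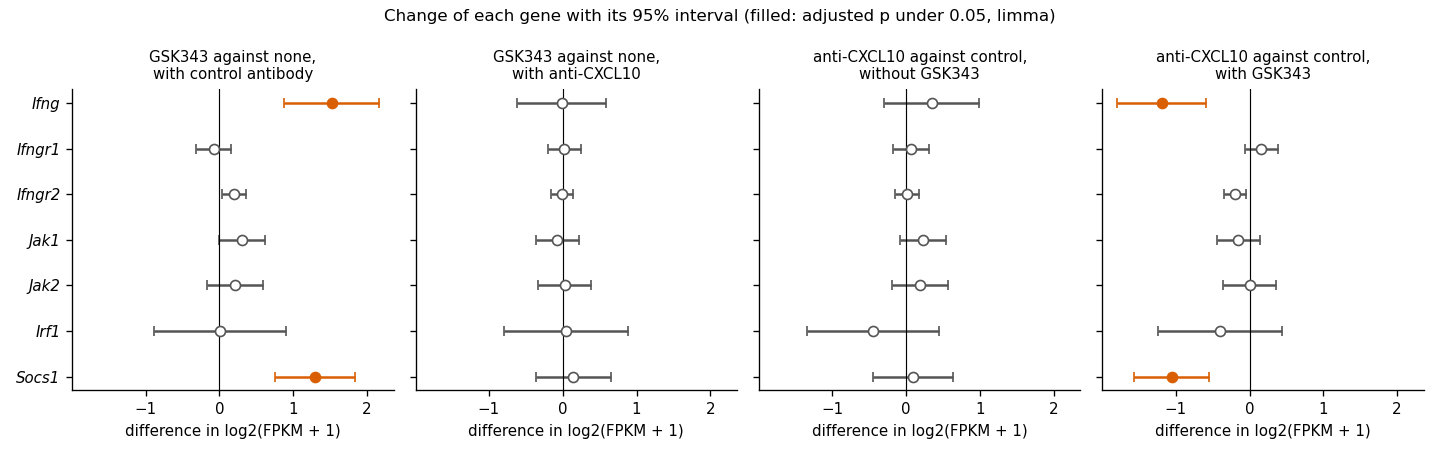
Difference of each of the 7 genes in 4 comparisons, on the log2(FPKM + 1) scale, with its 95% interval; filled points had a limma adjusted p under 0.05. Ifng (1.52) and Socs1 (1.30) are filled with GSK343 under the control antibody and (-1.19 and -1.06) with anti-CXCL10 in the presence of GSK343.

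The Ifng and Socs1 calls rested on a group whose libraries differ in other tissue. The summed level of 15 skeletal muscle markers ran from 55.2 to 2555 FPKM in control antibody plus GSK343, against 22.1 to 108 with control antibody, 6.92 to 323 with anti-CXCL10 and 15.4 to 125 with both, and none of the 15 was at 0 in a whole group. The 3 libraries highest in these markers were replicates 3, 4 and 5 of control antibody plus GSK343, with 22.7, 5.70 and 8.01 FPKM of Ifng. Without them, which leaves 2 libraries in that group, the change of Ifng was 1.32 (limma adjusted p = 0.0739) and that of Socs1 1.15 (limma adjusted p = 0.146) for GSK343 under the control antibody. The same leave-out gave -0.99 (adjusted p = 0.0673) and -0.91 (adjusted p = 0.126) for anti-CXCL10 with GSK343. With muscle and keratinocyte marker scores as covariates, Ifng had 1.34 (adjusted p = 0.183) and Socs1 1.01 (adjusted p = 0.206) in the first comparison, and -0.98 (adjusted p = 0.219) and -0.72 (adjusted p = 0.251) in the second. The direction of both genes was thus kept and the calls were not.

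Markers of the cells that make interferon-gamma moved with Ifng. With GSK343 under the control antibody, 13 of 16 T cell markers and 3 of 5 tested NK cell markers rose by limma, with median changes of 1.01 and 1.35. Of all tested genes, 5.47% passed in this comparison and 10.1% in anti-CXCL10 with GSK343. The summed T cell markers ran from 75.9 to 126 FPKM with control antibody, 150 to 384 with GSK343 added, 88.9 to 148 with anti-CXCL10 and 98.4 to 163 when both were given. The summed NK cell markers ran from 17.9 to 36.2, 35.9 to 114, 23.9 to 39.2 and 27.9 to 43.7 FPKM. For the T cell sum, anti-CXCL10 plus GSK343 was the 1 other group to reach into the range of control antibody plus GSK343; for the NK cell sum all 3 others did. No listed marker was at 0 in a whole group. With GSK343 present, 11 of 16 T cell and 3 of 5 NK cell markers fell under anti-CXCL10. Macrophage markers moved the same way, with 8 of 10 higher with GSK343 under the control antibody and 9 of 10 lower under anti-CXCL10 with GSK343. Their sums ran from 479 to 967, 1158 to 2091, 608 to 886 and 693 to 933 FPKM in the 4 groups. Markers of B cells, lymphocytes that make antibodies, also moved: 9 were listed, 4 are in the table and 3 were tested. All 3 rose with GSK343 under the control antibody (median 3.46), and all 3 fell under anti-CXCL10 with GSK343 (median -4.10). Their sums ran from 8.17 to 230.5, 249.9 to 921, 7.17 to 35.6 and 7.70 to 91.0 FPKM, so control antibody plus GSK343 did not overlap the other groups. Of 11 hepatoma markers, 3 fell with GSK343 under the control antibody (median -0.44), and 5 rose and 1 fell under anti-CXCL10 with GSK343 (median 0.49). The hepatoma sums ran from 7168 to 8983, 4614 to 6739, 7532 to 11590 and 6860 to 11270 FPKM in the 4 groups. Every library of control antibody plus GSK343 thus lay below those of the other groups in this sum. Of 9 fibroblast markers, 0 passed by limma in the first comparison, where 2 had an unadjusted p under 0.05 (median 0.41), and 4 fell in the second (median -0.69). The NK cell marker Klrg1 passed the filter on low values only through control antibody plus GSK343, so its difference follows in part from the filter. Without the 3 libraries highest in muscle markers, or with marker scores as covariates, 0 T cell, 0 NK cell and 0 macrophage markers passed in either comparison. In fits of the compared groups alone, 5 and 6 T cell, 1 and 2 NK cell and 0 and 7 macrophage markers passed in the 2 comparisons. The part of these cells in the changes of Ifng, Socs1 and the gene lists was not tested beyond the values given here.

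Set against these markers, the Ifng difference was smaller and did not pass. The log2 level of Ifng minus the mean log2 level of the T and NK cell markers was -0.48 ± 0.24 with control antibody (SD, n = 4) and -0.00 ± 0.42 with GSK343 added (SD, n = 5). The difference of 0.48 had p = 0.127 by a two-sided exact permutation test (adjusted over 5 comparisons 0.357, smallest p possible 0.0159), with 3 of 5 treated libraries above the highest control. With GSK343 present, the measure differed by -0.37 under anti-CXCL10, with exact permutation p = 0.143 (adjusted 0.357, smallest possible 0.00794). The other 3 comparisons had exact permutation p of 0.270 to 0.556.

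**Figure D3:**
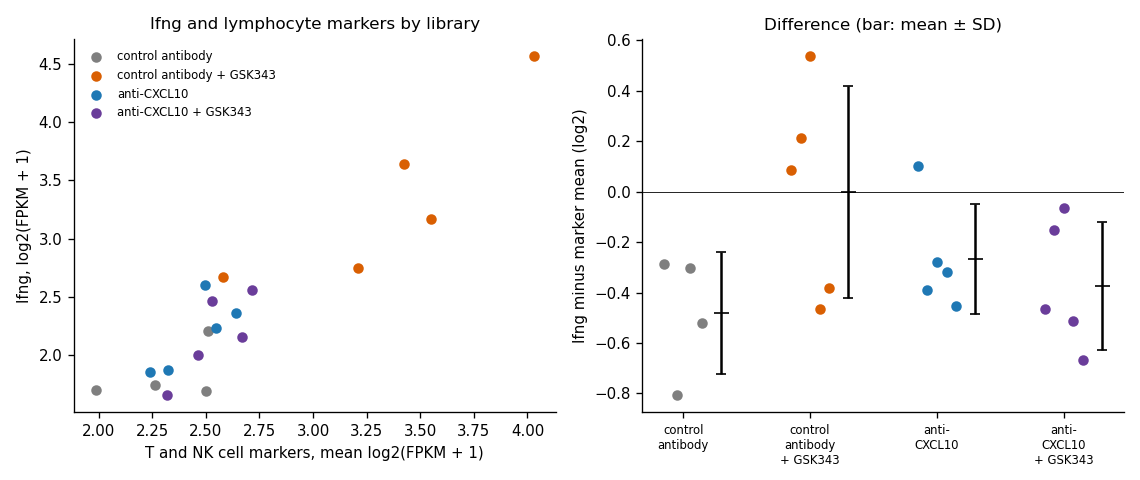
Left, Ifng against the mean of the T and NK cell markers, both on the log2(FPKM + 1) scale, 1 point per library; right, the difference between them by group with the mean ± SD. Ifng is higher where the markers are higher, and the groups overlap in the difference (-0.48 ± 0.24 with control antibody and -0.00 ± 0.42 with GSK343 added).

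Across libraries, Socs1 had the highest correlation with Ifng among the 6 other members. Their log2 levels had Pearson r = 0.889 and Spearman rho = 0.860 over 19 libraries (permutation p = 1e-05 for each, the smallest that 100000 resamples give, adjusted 6e-05 over the 6 members compared with Ifng). Leaving out the 2 libraries farthest from the median of Ifng gave r = 0.874. Within the control antibody libraries (n = 9) r was 0.924 (adjusted exact permutation p = 0.00111), and within the anti-CXCL10 libraries (n = 10) it was 0.707 (adjusted permutation p = 0.164). Each of these sets still holds libraries without and with GSK343. Libraries were shuffled across these groups, so r and p, here and for the other pairs of members, include differences between groups. After subtracting each group's mean, r with Ifng was 0.701 for Socs1, and for the other members 0.595 (Ifngr1), 0.539 (Jak2), 0.412 (Jak1), 0.311 (Irf1) and 0.201 (Ifngr2).

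The relation of the receptor chains and kinases to Ifng varied with the libraries used. Ifngr2 had r = 0.633 (rho = 0.425, adjusted permutation p = 0.0122 for r and 0.216 for rho) and Jak1 r = 0.532 (rho = 0.319, adjusted permutation p = 0.0354 and 0.275). Without the 2 libraries farthest in Ifng these became 0.267 and 0.148, so over all 19 libraries both rest on those 2. Within the control antibody libraries r was 0.671 and 0.791 (adjusted exact permutation p = 0.0967 and 0.0326), and 0.817 and 0.669 there without the 2 farthest. Within the anti-CXCL10 libraries r was -0.142 and -0.262. Without replicate 2 or without replicate 3 of control antibody plus GSK343, r for Ifngr2 was 0.541 and 0.547 and no longer passed (adjusted p = 0.0636 and 0.0621). Jak1 no longer passed without replicate 1 (r = 0.492) or 5 (0.505) of control antibody, replicate 2 (0.504) or 3 (0.277) of control antibody plus GSK343, or replicate 1 of anti-CXCL10 plus GSK343 (0.522). Jak2 had r = 0.448 (rho = 0.367, adjusted permutation p = 0.0786). It passed without replicate 1 (r = 0.557) or 5 (0.521) of control antibody plus GSK343 or replicate 2 of anti-CXCL10 (0.519). Irf1 had r = 0.294 (rho = 0.254, adjusted permutation p = 0.267) and Ifngr1 0.0923 (rho = -0.0579, adjusted permutation p = 0.707). Without the 2 farthest libraries r was 0.107 for Jak2, 0.121 for Irf1 and -0.340 for Ifngr1. For Irf1, r was 0.1035 within the control antibody libraries (adjusted exact permutation p = 0.785). It was 0.540 within the anti-CXCL10 libraries (adjusted permutation p = 0.324).

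**Figure D4:**
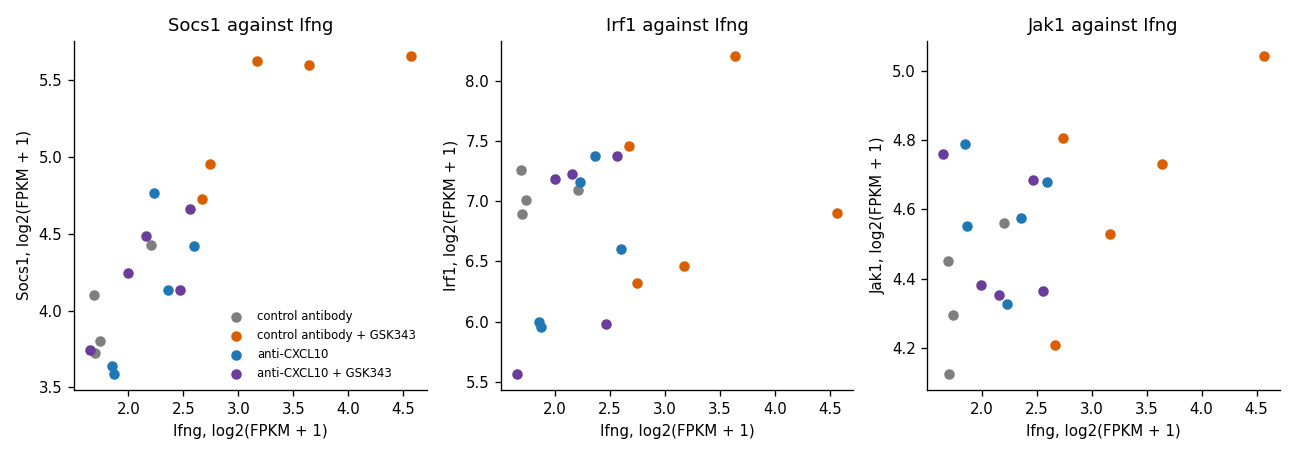
Socs1, Irf1 and Jak1 (vertical axes) against Ifng (horizontal axis), all as log2(FPKM + 1), 1 point per library, coloured by group. Socs1 rises with Ifng (r = 0.889), while Irf1 (r = 0.294) and Jak1 (r = 0.532) scatter.

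The kinases moved with each other. Over the 15 other pairs of members, Jak1 and Jak2 had the highest correlation across the 19 libraries (r = 0.802, permutation p = 3e-05, adjusted 0.00045; rho = 0.716, adjusted p = 0.00765). It was 0.716 without the 2 libraries farthest in Jak1, 0.908 within the control antibody libraries and 0.564 within the anti-CXCL10 libraries (adjusted p = 0.0169 by exact permutation and 0.179). Ifngr1 followed Jak2 (r = 0.680, adjusted permutation p = 0.0107; rho = 0.709, adjusted p = 0.00765). This became 0.481 without the 2 libraries farthest in Ifngr1, and 0.692 and 0.640 within the sets. Ifngr2 stood apart from its partner chain (r = -0.188, rho = -0.335, adjusted permutation p = 0.473 and 0.304). Irf1 and Socs1 had r = 0.437 (rho = 0.395, adjusted permutation p = 0.155 and 0.238), with 0.0649 within the control antibody libraries and 0.787 within the anti-CXCL10 libraries, where the adjusted permutation p was 0.0846.

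Jak1 had a negative correlation with the plain FPKM sum of a library (r = -0.565, adjusted permutation p = 0.0415 over 7 members; rho = -0.588, adjusted p = 0.0649). It was -0.495 without the 2 libraries farthest in that sum, -0.404 within the control antibody libraries and -0.873 within the anti-CXCL10 libraries. Irf1 had a positive one (r = 0.564, adjusted permutation p = 0.0415; rho = 0.460, adjusted p = 0.0931), which was 0.507 without the 2 farthest libraries and 0.196 and 0.666 within the sets. Ifngr1 also had a negative one (r = -0.525, adjusted permutation p = 0.0497; rho = -0.475, adjusted p = 0.0931). It was -0.373 without the 2 farthest libraries, -0.268 within the control antibody libraries and -0.804 within the anti-CXCL10 libraries (adjusted permutation p = 0.0165). Jak2 had r = -0.493, which did not pass (adjusted permutation p = 0.0550, with rho = -0.440, adjusted p = 0.0931). It was -0.440 without the 2 farthest libraries, and -0.517 and -0.571 within the sets. For Socs1, Ifng and Ifngr2, r was 0.402, 0.193 and 0.0551, and none passed. The part of library composition in the levels of these genes, and in their correlations with each other, was not tested further.

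By pattern over the 19 libraries, the protein-coding genes most like Ifng, of 11546 searched, were Gzmb (r = 0.950), which encodes granzyme B of cytotoxic lymphocytes, Ms4a4b (0.947), Nos2 (0.943), the inducible nitric oxide synthase, Atp8b4 (0.936) and Padi2 (0.936). Gzmb averaged 11.0, 28.3, 12.3 and 13.8 FPKM in the 4 groups, in the order used for Irf1. Nos2 averaged 2.92, 17.5, 3.98 and 3.40 FPKM. The genes most like Socs1 were Aldh3b1 (r = 0.954), Ostf1 (0.951), the interferon-inducible GTPase gene Ifi47 (0.950), Nkg7 (0.947), a granule protein of cytotoxic lymphocytes, and Pycard (0.946), an inflammasome adaptor. Those most like Irf1 had lower correlations: Rab24 (0.797), Hbegf (0.791), Ccdc163 (0.787), the cell cycle factor E2f1 (0.786) and Ndufb5 (0.765). The 3 sets of nearest genes share no member.

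The genes that surround the chain were grouped by role, starting upstream of Ifng. For the counts of calls in each list, the share over all tested genes was 5.47% in GSK343 with control antibody. It was 10.1% in anti-CXCL10 with GSK343. Of 19 listed genes that induce Ifng, 11 were tested, and with GSK343 under the control antibody 4 rose and 0 fell (median of the 11, 0.53, against -0.03 over all tested genes). They were Il2rb, a receptor subunit for interleukins that sustain T and NK cells (1.12 ± 0.22, limma adjusted p = 0.00715), Stat4, the factor that interleukin signals use to induce Ifng (1.10 ± 0.23, adjusted p = 0.00863), the receptor gene Il27ra (0.87 ± 0.19, adjusted p = 0.0124) and the cytokine subunit gene Ebi3 (0.81 ± 0.21, adjusted p = 0.0312). Stat4 averaged 1.98, 5.43, 1.71 and 2.15 FPKM in the 4 groups in the order above. With GSK343 present, 6 of the 11 fell under anti-CXCL10 (median -0.70, against 0.03), with Runx3, a factor of cytotoxic T and NK cells, at -0.81 ± 0.14 (limma adjusted p = 0.00242), Stat4 at -1.03, Il27ra at -0.70 and Ebi3 at -0.72. With 1 library left out, Il2rb, Stat4 and Il27ra kept the first call in 19 of 19 fits and Ebi3 in 13, and the second was kept by Runx3 and Stat4 in 19, Il27ra in 17 and Ebi3 in 13. Il2, also on the list, was listed at 0 in 14 of 19 libraries, all 10 of anti-CXCL10 among them. Il27ra reached 1 FPKM in 0 of 4, 4 of 5, 1 of 5 and 2 of 5 libraries of the 4 groups. It and Il2 passed the filter on low values only through control antibody plus GSK343, so the difference of Il27ra follows in part from the filter. Neither was tested without the 3 libraries highest in muscle markers, which left 9 inducers.

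Among the signal carriers, 3 of 7 STAT genes rose with GSK343 under the control antibody (median 0.14), Stat4 and Stat2 among them. Stat2, a part of the complex that type I interferons activate, changed by 0.90 ± 0.19 (limma adjusted p = 0.0105), and by -0.64 ± 0.18 under anti-CXCL10 with GSK343 (adjusted p = 0.0299), where 3 of 7 fell. It kept these calls in 18 and 15 of 19 fits with 1 library left out. Of the 6 other JAK kinases and interferon receptor genes tested, 0 passed in either comparison by limma (median 0.08 and -0.06), although 2 and 0 had an unadjusted p under 0.05. Receptor and kinase genes inside the chain had no called change either. Of all tested genes, 5.47% and 10.1% passed in the 2 comparisons, so a count of 0 among so few genes is near that share.

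Of 9 other genes of the IRF family and its binding partners, 3 rose with GSK343 under the control antibody: Irf8, a factor of myeloid cells (0.61 ± 0.15, limma adjusted p = 0.0239), Irf9, the DNA-binding partner of STAT proteins after type I interferon (0.65 ± 0.17, adjusted p = 0.0354), and Irf2, which binds the same element as Irf1 (0.28 ± 0.08, adjusted p = 0.0377). Their list median was 0.00. Under anti-CXCL10 with GSK343, 2 of 9 fell, Irf7 (-1.06 ± 0.29, adjusted p = 0.0289) and Irf2 (-0.24 ± 0.07, adjusted p = 0.0425). With 1 library left out the calls held in 15 of 19 fits for Irf8, 12 for Irf9, 12 and 9 for Irf2 and 14 for Irf7. Of 18 other negative regulators, 0 passed with GSK343 under the control antibody by limma, where 5 had an unadjusted p under 0.05 (median -0.01). Under anti-CXCL10 with GSK343, 1 fell, Socs3 (-0.50 ± 0.16, adjusted p = 0.0479), and 1 rose, Pias2, a SUMO ligase that acts on STAT proteins (0.31 ± 0.09, adjusted p = 0.0364). These counts of negative regulators are near the share of all tested genes that passed, 5.47% in the first comparison and 10.1% in the second. The Socs3 call held in 4 of 19 fits with 1 library left out and the Pias2 call in 13.

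Downstream, 26 of 37 tested interferon-gamma target genes rose and 0 fell with GSK343 under the control antibody, with a median of 0.85 against -0.03 over all tested genes. The 4 with the smallest p were the GTPase gene Gbp7 (0.92 ± 0.17, limma adjusted p = 0.00473), Parp14 (0.88 ± 0.17, adjusted p = 0.00642), the Fc receptor gene Fcgr1 (0.82 ± 0.16, adjusted p = 0.00663) and Serpina3g (1.49 ± 0.30, adjusted p = 0.00783). Serpina3g averaged 29.7, 90.0, 39.2 and 34.6 FPKM in the 4 groups. Under anti-CXCL10 with GSK343, 12 of 37 fell and 0 rose (median -0.50 against 0.03), with Gbp7 at -0.80, the peptide transporter gene Tap2 at -0.66, Nos2 at -1.96 and Serpina3g at -1.23. In GSK343 with anti-CXCL10, anti-CXCL10 without GSK343, GSK343 plus anti-CXCL10 against control antibody and the test of the difference, limma called 0 of 37, with 1, 5, 4 and 27 at an unadjusted p under 0.05. Many of these GTPase and chemokine genes are also induced by type I interferons, whose 19 listed cytokine genes were not analysed here.

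The count of called targets depended on the model and on single libraries. It was 0 of 37 in both comparisons when the marker scores of muscle and keratinocytes were covariates, and 4 and 9 in fits of the compared groups alone. With GSK343 under the control antibody leaving out replicate 1 or 5 of control antibody gave 7 in either case, leaving out replicates 3 and 2 of control antibody plus GSK343 gave 12 and 13, and each of the other libraries between 22 and 34. It was 0 without the 3 libraries highest in muscle markers, where the median was 0.80. Under anti-CXCL10 with GSK343 the count ran from 5 (without replicate 2 or 3 of control antibody plus GSK343) to 26, and was 1 without the 3 libraries. The inducers then had 0 and 1 calls, and the STAT and IRF lists 0. With the covariates all 3 lists had 0 calls, and with the compared groups alone the inducers had 1 and 2, the STAT list 1 and 2 and the IRF list 0 and 1. The named targets kept their calls in 19 of 19 fits with 1 library left out.

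**Figure D5:**
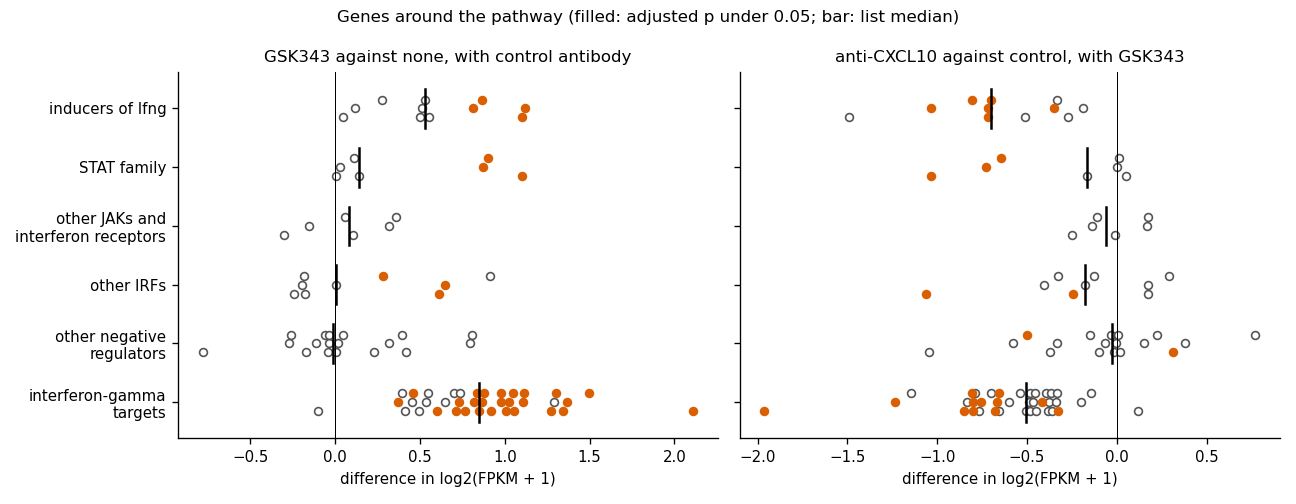
Differences on the log2(FPKM + 1) scale for the genes of 6 lists around the chain, with GSK343 under the control antibody (left) and with anti-CXCL10 in the presence of GSK343 (right); each point is a gene, filled where the limma adjusted p was under 0.05, and the bar is the list median. The target list has 26 filled points to the right of 0 on the left panel and 12 to the left of 0 on the right panel.

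The targets resembled Ifng and Socs1 in pattern more than they resembled Irf1. As a description over 19 libraries, the median Pearson r of the 37 targets was 0.831 with Ifng, 0.848 with Socs1, 0.646 with Ifngr2, 0.533 with Jak1, 0.430 with Jak2, 0.271 with Irf1 and -0.00189 with Ifngr1. All 37 targets had a positive r with Ifng, with Socs1 and with Ifngr2, and 18 of 37 with Ifngr1. Over all tested genes the median r lay between -0.0451 and 0.0645 for the 7 members.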

How the data were processed

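Poly-A RNA of HEPA1-6 tumors was sequenced on an Illumina HiSeq instrument, per the labels' protocols. The deposited FPKM values come from 1 table of 14646 rows and 19 libraries. That they are FPKM was read from the values: the coefficient of variation between libraries was 0.790% for length-weighted sums and 4.06% for plain ones. Per the submitters' processing notes, the tools were StringTie 1.3.3b, HTSeq 0.6.0, HISAT2 2.1.0, TopHat2 2.1.0 and Trimmomatic 0.33, in roles not given in the sources used here, on builds GRCm38 and mm10. Depth is unknown, so precision rests on the replicates alone.

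Rows that shared a gene ID (8 IDs) were summed, leaving 14633 genes. Genes with at least 1 FPKM in at least 5 libraries were tested. Values were tested as log2(FPKM + 1), which understates the change of low genes, with limma 3.58.1 (R 4.3.3, statmod 1.5.0, trend and robust moderation) in a model of 4 group means over all 19 libraries, in 6 comparisons. The threshold was an adjusted p under 0.05 (Benjamini-Hochberg, over 14385 genes), and an adjusted p of a gene is from this fit unless another setting is named beside it. The fit was tested on simulated data. Single measures were compared by two-sided exact permutation, and correlations by permutation (100000 resamples, exact for 9 libraries) in Python 3.11.15 with scipy 1.17.1. Promoters came from RefSeq. Positions of genes are those of the deposited table.

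The members and gene lists were chosen with earlier results of these data known. Named were all members, up to 4 genes per list and comparison past the threshold by p, and the 5 genes most correlated with Ifng, Irf1 and Socs1. Gene Il2 was named after its values were seen. Some listed genes that meet this rule are counted but not reported here. The names Gbp5 and Gbp2b refer to a single row, counted once. Alternatives were a pseudocount of 0.1, a filter of 5 FPKM or none, another moderation, 2 scalings between libraries, marker scores as covariates, a replicate block, the compared groups alone, and leaving out libraries. Refits of the listed genes were added after seeing the data.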

Additional observations from a re-analysis of the deposited data

Results flagged for a closer look

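Replicate 3 of control antibody had 3.62 FPKM of Ifng, and the other 3 libraries of that group lay between 2.23 and 2.34. The gap to its nearest neighbour was 0.920 of the group's range, above the critical value of 0.829 for 4 libraries. Of the 28 sets tested (7 genes in 4 groups) this was the 1 with a library so far from the others, and chance gives about 1 in 20. The same library had the highest Socs1 (20.5 FPKM), Ifngr1 (74.2), Jak1 (22.6) and Jak2 (42.0) of its group, but not the highest Irf1 or Ifngr2.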

How the results depend on the processing

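The calls of Ifng and Socs1 in GSK343 with control antibody and in anti-CXCL10 with GSK343 were kept in all 19 fits that left out 1 library (2 members each time), and with the other pseudocount, filters, moderation, scalings and the block. The highest adjusted p with 1 library left out was 0.0338 and 0.0461 for Ifng. Ifng ran from 1.22 to 1.70 and from -1.36 to -0.89. With 1 library left out, genes called ran from 299 to 1382 for GSK343 with control antibody, 0 to 1 for GSK343 with anti-CXCL10, 0 to 2 for anti-CXCL10 without GSK343, 843 to 1822 for anti-CXCL10 with GSK343, 0 to 2 for the combined comparison (GSK343 plus anti-CXCL10 against control antibody) and 0 to 472 for the interaction, where members called ran from 0 to 2.

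With muscle and keratinocyte marker scores as covariates, 0 members were called in both comparisons, with Ifng at 1.34 (adjusted p = 0.183) and -0.98 (0.219) and Socs1 at 1.01 (0.206) and -0.72 (0.251). Genes called were then 3 and 2, and 0 without GSK343, 0 in the combined comparison and 0 in the interaction. Without the 3 libraries highest in muscle markers, members called were 0 and 0, and genes called 14 for GSK343 with control antibody, 478 for anti-CXCL10 with GSK343, 0 without GSK343, 2 in the combined comparison and 1 in the interaction. In fits of the compared groups alone, members called were 1 and 1: Socs1 stayed, and Ifng had adjusted p of 0.0627 and 0.0597. Genes called were 243 for GSK343 with control antibody, 0 for anti-CXCL10 without GSK343 and 4 for the combined comparison. The cause of these changes was not tested.

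With the replicate number as a block, genes called were 0 for anti-CXCL10 without GSK343, 0 for the combined comparison and 57 for the interaction, and no call of a member changed. Deviations from group means of the 27 same-numbered pairs correlated from -0.199 to 0.318 (mean 0.0719, against -0.0179 for the other 108), and 8 of 19 libraries correlated best with their own number, a hint from the data and not from the design. Since the pair correlations were not all above 0.1, the numbers were not taken as pairs. Of 1211 alternative values of members 53 changed sign, each without a call in either fit, as did 3 of 144 correlations. Of 773 alternative values of named list genes 156 lost the call.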
